A study of Mus musculus with 6 samples.

Results

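The genes described here are 34 genes of the cell division cycle in mouse granulosa cells, the somatic cells of the ovarian follicle that luteinize after the ovulatory stimulus. They were listed by symbol, and rows carrying exactly those symbols were taken from both deposited tables. All 34 were found, as 1 row each, among 30854 rows of the non-normalized table of intensities and among 30832 rows of the series matrix table. Of the 34 genes, 32 drive replication or division and are called proliferation genes below, and the other 2, Cdkn1a and Cdkn1b, encode inhibitors of cyclin-dependent kinases. RNA came from granulosa cells of female C57BL/6J mice of genotype Fzd1 KO or Fzd1 WT, labelled as 26 days old and taken from a range of 23 to 26 days, with 3 samples of each genotype on 1-colour arrays. Every mouse of both genotypes had been given 5 IU of eCG, which drives follicle growth, followed 48 h later by 5 IU of hCG, which stands in for the ovulatory surge of luteinizing hormone, and the ovaries were punctured 12 h later to release the cells. The labels do not say how the Fzd1 allele was made. Nor do they say whether replicates are separate animals, so the p-values cover the spread of these samples only, and part of it may be technical. No sample from before hCG was analysed here, so the values are levels at 12 h and not changes during luteinization.

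Granulosa cells of growing follicles divide, and cyclin D2, encoded by Ccnd2, carries the signal of follicle-stimulating hormone into the cycle. After the ovulatory surge the cells leave the cycle as they luteinize, and the inhibitors p21, encoded by Cdkn1a, and p27, encoded by Cdkn1b, hold back the cyclin-dependent kinases. Genes of replication are switched on by E2F factors at the G1/S boundary. Genes of mitosis are switched on later through the CHR element, bound by the MMB complex, and through CCAAT boxes. Cdkn1a is a textbook target of p53.

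The promoters of 27 of the 34 genes were matched in RefSeq (GRCm38.p6), and 5 of them are shown because between them they hold every motif searched, in genes of mitosis, replication and inhibition. Each runs from 160 bases before the start to 50 bases after it, 5′ to 3′ on the strand of the gene, and capitals mark matches to TTTGAA (the CHR core), CCAAT, TTTNGCGC (an E2F motif) and a p53 core, which is CATG, any 6 bases and CATG again, each searched on both strands. Plk1 lies at chr7:122159275-122159484 on the plus strand, Aurka at chr2:172370521-172370730 on the minus strand and Cdc20 at chr4:118437294-118437503 on the minus strand. Mcm5 lies at chr8:75109349-75109558 and Cdkn1a at chr17:29090819-29091028, both on the plus strand. In Mcm5 a match on each strand overlaps, so the capitals run through both. Matches are descriptions of the letters and not of binding.
Plk1: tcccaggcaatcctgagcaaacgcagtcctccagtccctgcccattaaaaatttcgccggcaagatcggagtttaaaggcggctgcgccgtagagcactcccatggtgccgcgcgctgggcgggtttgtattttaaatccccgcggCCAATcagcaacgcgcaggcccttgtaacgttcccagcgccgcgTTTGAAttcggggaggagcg
Aurka: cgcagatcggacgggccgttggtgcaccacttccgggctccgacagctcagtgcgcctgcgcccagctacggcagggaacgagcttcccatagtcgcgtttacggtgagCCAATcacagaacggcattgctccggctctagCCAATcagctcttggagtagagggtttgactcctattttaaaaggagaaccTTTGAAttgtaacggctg
Cdc20: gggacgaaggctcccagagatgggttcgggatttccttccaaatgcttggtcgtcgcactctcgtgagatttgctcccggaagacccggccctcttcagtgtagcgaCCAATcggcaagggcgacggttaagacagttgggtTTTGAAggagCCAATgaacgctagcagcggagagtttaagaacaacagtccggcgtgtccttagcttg
Mcm5: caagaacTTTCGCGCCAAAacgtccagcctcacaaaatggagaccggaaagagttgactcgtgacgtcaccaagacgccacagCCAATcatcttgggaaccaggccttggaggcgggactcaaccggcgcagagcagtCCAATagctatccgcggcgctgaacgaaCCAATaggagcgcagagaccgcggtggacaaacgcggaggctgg
Cdkn1a: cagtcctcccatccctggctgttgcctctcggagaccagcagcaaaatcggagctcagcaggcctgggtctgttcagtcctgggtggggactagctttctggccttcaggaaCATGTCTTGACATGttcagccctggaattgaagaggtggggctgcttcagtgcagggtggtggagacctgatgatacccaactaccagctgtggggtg

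Over all 32851 mouse promoters of 250 bases before to 50 after the start, 17.89% held TTTGAA on either strand, 37.41% CCAAT, 1.376% the E2F motif and 0.7123% the p53 core. Of the 25 matched proliferation genes, 11 (44.0%) held TTTGAA and 20 held CCAAT. The CHR core lay in the promoters of 7 of the 9 matched spindle, checkpoint and chromosome genes, namely Bub1b, Ube2c, Cdc20, Cenpa, Mki67, Top2a and Kif11, and in 3 of the 4 matched mitotic cyclin and kinase genes, namely Plk1, Aurka and Ccnb2. Among the 10 matched replication genes it lay only in Mcm2, while the E2F motif lay in 4 of them, Mcm3, Mcm5, Mcm6 and Mcm7, and in no matched mitotic gene. The p53 core lay in Cdkn1a, 48 bases before the start used, and in 0 of the 25 proliferation genes. The first of the listed starts was used for Cdkn1a and Mcm7, which have more than 1. The distance of 48 bases therefore holds for that start of Cdkn1a alone. Matches at its other listed starts are not given, and which start these cells use was not tested.

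Whether a row's symbol can be taken to name its gene was checked in each table with ribosomal protein genes, which encode some of the most abundant transcripts of a cell. Of the 65 rows of the non-normalized table with such symbols, 50 (76.9%) were among the brightest 10% of rows, and their median intensity was 1620.2 against 106 for all rows. Of the 65 rows of the series matrix table, 10 (15.4%) were among the brightest 10%, and their median of 7.64 on its log2 scale equalled that of all rows. Across the 30817 labels shared by the tables, mean levels showed no correlation (Spearman's rho -0.0089, Pearson's r -0.0033, across rows, which are not independent replicates). Levels are therefore credited to genes in the non-normalized table only, and in the series matrix table a symbol stands for a labelled row.

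**Figure D1:**
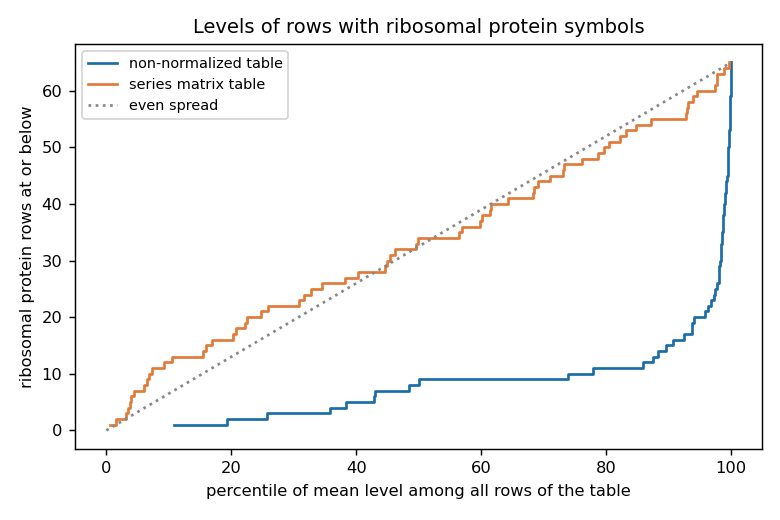
Cumulative number of the 65 ribosomal protein rows (vertical axis) by percentile of mean level among all rows of the table (horizontal axis). In the non-normalized table (blue) 50 of the 65 rows lie in the brightest 10%, while in the series matrix table (orange) the rows follow the dotted line of an even spread.

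The table in which levels can be credited carries no genotype. Its 6 array columns have names that match no sample label, so the arrays are numbered 1 to 6 in column order as names only, and each may belong to either genotype. Median intensity was 104.7 to 112.9 on these arrays. A row was counted as detected where its deposited detection p-value was below 0.01, which held for 7507 to 8037 rows per array. In 22727 rows the detection p-value was a whole number of 936ths on every array, within 0.002 of a step, and these are called whole-step rows. In the other 8127 it was not, and there it did not always follow the intensity, so that Mcm4 had intensities of 524 to 636 with detection p-values up to 0.526. A second measure was therefore used, an intensity above that of every whole-step row that was not detected on that array, a limit of 118 to 129.5. Of the 34 genes, 21 had whole-step rows. In 3223 rows several array identifiers are joined, among them the rows of Ccnd2, Top2a and Bub1b. No source used here says whether each identifier is a probe, or gives the number of probes behind a row. A row's brightness also depends on its probe, so brightness does not order the amounts of different transcripts. In bulk RNA a smaller number of cells of a type and less RNA per cell cannot be told apart.

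Most cell cycle genes gave a signal above the intensity limit 12 h after hCG, while fewer passed the detection p-value. Of the 34 genes, 17 (50%) were detected on all 6 arrays, against 18.7% of all rows. Another 8 (23.5%) were detected on no array, against 64.8% of all rows. The intensity limit, chosen after seeing the data, was passed on all 6 by 25 (73.5%), against 24.9% of all rows. Another 7 (20.6%) were above it on no array, against 63.8% of all rows. These were Pcna, Ccna2, Ccnb2, Bub1, Ube2c, Kif20a and Cdkn1b. The remaining Rrm2 was above it on 5 arrays and Ccne1 on 1. By role, the limit was passed on all arrays by 9 of 11 replication genes, 3 of 4 G1/S regulators, 5 of 7 mitotic cyclins, kinases and their regulators, 7 of 10 spindle, checkpoint and chromosome genes and 1 of 2 inhibitors.

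**Figure D2:**
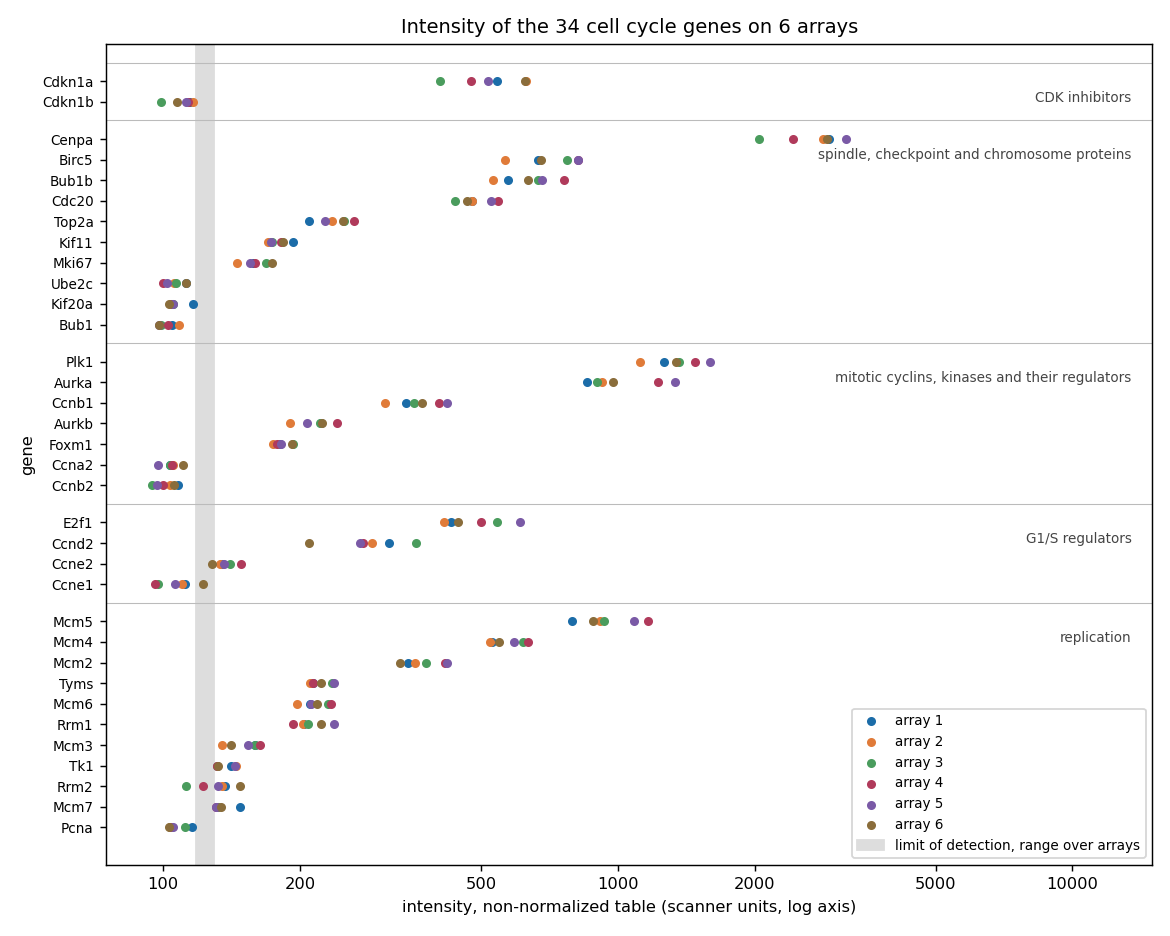
Intensity of each of the 34 genes (rows, grouped by role) on the 6 arrays of the non-normalized table (coloured points, horizontal log axis in scanner units). The grey band is the range of the intensity limit over the arrays, 118 to 129.5; 25 genes lie above the limit on every array and Cdkn1b and 6 proliferation genes lie below it on every array.

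Among the replication genes, Mcm2 to Mcm7 encode the 6 subunits of the helicase that unwinds DNA. Mcm5 had intensities of 794, 913, 931, 1163, 1083 and 883 on arrays 1 to 6. Mcm2 had 346, 358, 379, 418, 421 and 331, and Mcm4 had 528, 524, 619, 636, 591 and 548. All of these intensities were well above the limit, with arrays 4 and 5 high for Mcm5 and Mcm2 and arrays 3 and 4 high for Mcm4. By its detection p-values, however, Mcm4 was detected on 1 array only, and its row is not a whole-step row. The other subunits were dimmer, Mcm6 at 197 to 234, Mcm3 at 135 to 163 and Mcm7 at 131 to 148, and each was above the limit on all arrays. Of the enzymes that make deoxynucleotides, Rrm1, the large subunit of ribonucleotide reductase, lay at 193 to 238. Tyms, thymidylate synthase, lay at 210.2 to 237, and Tk1, thymidine kinase, at 132 to 144. By the detection p-value, Tyms was detected on 1 array, Mcm6 and Tk1 on 3 each and Rrm1 on 4. None of these is a whole-step row. Rrm2, the small subunit of the reductase, lay at 112 to 147, around the limit. Pcna, the sliding clamp of the replication fork, lay at 103 to 116, the level of background.

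Of the G1/S regulators, E2f1, a transcription factor that switches on replication genes, had intensities of 429.8, 415, 542, 501, 610.1 and 446. It was high on arrays 3, 4 and 5 and was detected on every array. Ccnd2, the cyclin of the granulosa cell's response to follicle-stimulating hormone, had 315, 288, 359, 276, 271 and 209. Array 3 was highest and array 6 lowest, a 1.72-fold span and the widest of the 14 genes given array by array. By the detection p-value Ccnd2 was detected on 4 arrays, and its row is not a whole-step row. After background correction and quantile normalization its arrays spanned 1.24 log2 units, and 0.65 without array 6. Ccne2, a cyclin E that partners Cdk2, lay at 128 to 148, and its relative Ccne1 at 96.1 to 123, above the limit on array 6 alone.

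Of the mitotic regulators, Plk1, a kinase of mitotic entry and spindle assembly, had intensities of 1264, 1121, 1364, 1482, 1597 and 1345. Aurka, a kinase of the spindle poles, had 857, 925, 898, 1227, 1335 and 974. Both were detected on all arrays and highest on arrays 4 and 5. Ccnb1, the cyclin B that drives entry into mitosis, lay at 308 to 421, Aurkb, the kinase of the chromosomal passenger complex, at 190.4 to 241, and Foxm1, a transcription factor of mitotic genes, at 174 to 193. The other cyclins of the group were at background, Ccna2 at 97.4 to 111 and Ccnb2 at 94.3 to 108.

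Among the spindle, checkpoint and chromosome genes, Cenpa, the histone variant that marks centromeres, had intensities of 2922, 2824, 2043, 2431, 3169.8 and 2886. It was lowest on arrays 3 and 4 and highest on array 5. Birc5, which encodes survivin of the passenger complex, had 669, 565, 773, 816, 816 and 676. Bub1b, a kinase-like protein of the spindle checkpoint, had 572, 532, 666, 761, 680.4 and 636. Both were high on arrays 3, 4 and 5 and lowest on array 2. Cdc20, the activator of the anaphase-promoting complex that the checkpoint holds back, had 479, 477, 438, 545, 526 and 466. Mki67, the proliferation antigen used to count cycling cells, had 157, 146, 168, 159, 155 and 173. These lay above the limit on all arrays, but its row is not a whole-step row, its detection p-values were 0.151 to 0.677, and it was detected on 0 arrays. Top2a, the topoisomerase that untangles sister chromatids, lay at 209.7 to 263 and Kif11, a motor that separates spindle poles, at 169.7 to 193. Bub1, Ube2c and Kif20a, which act in the checkpoint, in anaphase and in cytokinesis, lay at 98.0 to 109, 99.9 to 112 and 103 to 116, the level of background.

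The inhibitors differed in whether they were measured above background. Cdkn1a had intensities of 542, 627, 405, 476, 518 and 626 and was detected on all arrays, highest on arrays 2 and 6 and lowest on array 3. Cdkn1b had 114, 116, 99.1, 114, 112 and 107, below the limit on every array, with detection p-values of 0.131 to 0.722. Its row, too, is not a whole-step row, and a signal at background gives only an upper bound.

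Genes outside the list of 34 were also found both above the limit and at background. Of 35 other replication and G1/S genes, 18 (51.4%) were above the limit on all arrays and 12 (34.3%) on none, against 73.5% and 20.6% of the 34. Those with the highest median were Orc6, a subunit of the origin recognition complex, at 546 to 699, Uhrf1, which keeps up DNA methylation behind the fork, at 494 to 769.6, Fen1, the flap nuclease, at 376 to 548, and Cdt1, which loads the helicase, at 353 to 551. Of 40 other mitotic genes measured, of 42 listed, 21 (52.5%) were above it on all arrays and 15 (37.5%) on none. Of all rows, 24.9% were above the limit on all arrays and 63.8% on none. These shares were not tested against each other. Prc1, which bundles the central spindle, lay at 1205 to 1539, Kif22, a chromosome motor, at 993 to 1377, and Cdca8, a subunit of the passenger complex, at 571 to 810.1. Cdca2, which brings a phosphatase to chromatin as mitosis ends, lay at 591 to 790.2. Of 16 other brakes on the cycle, 10 were above it on all arrays and 5 on none. Btg1, an antiproliferative gene, lay at 872 to 1402, Mdm2, which targets p53 for destruction, at 852 to 992, Gadd45a, a gene of growth arrest, at 292 to 509, and Cdkn1c, which encodes the inhibitor p57, at 411 to 518. Uhrf1 and Prc1 were detected on 0 arrays by their p-values and Mdm2 on 2, and none of these 3 is a whole-step row.

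Across the arrays the proliferation genes varied about as much as other rows. On the log2 scale after background correction and quantile normalization, the highest and lowest arrays differed by a median of 0.53 over the 24 proliferation genes above the limit on all arrays, with a range of 0.23 (Kif11) to 1.24 (Ccnd2). Over all 7677 rows above the limit the median was 0.57. Plk1 spanned 0.53 log2 units, Aurka 0.77, Mcm5 0.75, Birc5 0.65, E2f1 0.65 and Bub1b 0.64, and Cdkn1a spanned 0.76. Without array 3 the span of Cdkn1a was 0.46.

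The direction of this variation was shared by many of them. Of the 24 proliferation genes, 12 (50%) were highest on array 4, against 15.8% of all rows. The lowest array was array 1 for 9 (37.5%, all rows 15.97%) and array 2 for 7 (29.2%, all rows 15.6%), and array 4 was lowest for 0. Their median deviation from each gene's own median was -0.15, -0.05, 0.09, 0.22, 0.12 and -0.04 log2 units on arrays 1 to 6. Cdkn1a ran the other way for most of them, highest on array 2 and lowest on array 3. Its log2 level correlated negatively with that of 19 of the 24, against 48.9% of all rows, with a median Pearson's r of -0.48 and a range of -0.89 (Mcm3) to 0.59 (Cenpa). For Mcm3 Spearman's rho was -0.89, the exact two-sided permutation p of r was 0.0222 and the adjusted p 0.267 over the 48 correlations computed with Cdkn1a and Gdf9. Of the 24 correlations with Cdkn1a, 0 had an adjusted p under 0.05. Without arrays 2 and 3, the farthest from the median of Cdkn1a, 17 of the 19 were still negative, while Mki67 went from -0.37 to 0.69 and Foxm1 from -0.40 to 0.71. In the opposite direction, Tk1 went from 0.40 to -0.56 and Mcm7 from 0.034 to -0.046. The arrays carry no genotype and may fall into both, so no correlation within a genotype could be computed, and the genes are not independent of each other.

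**Figure D3:**
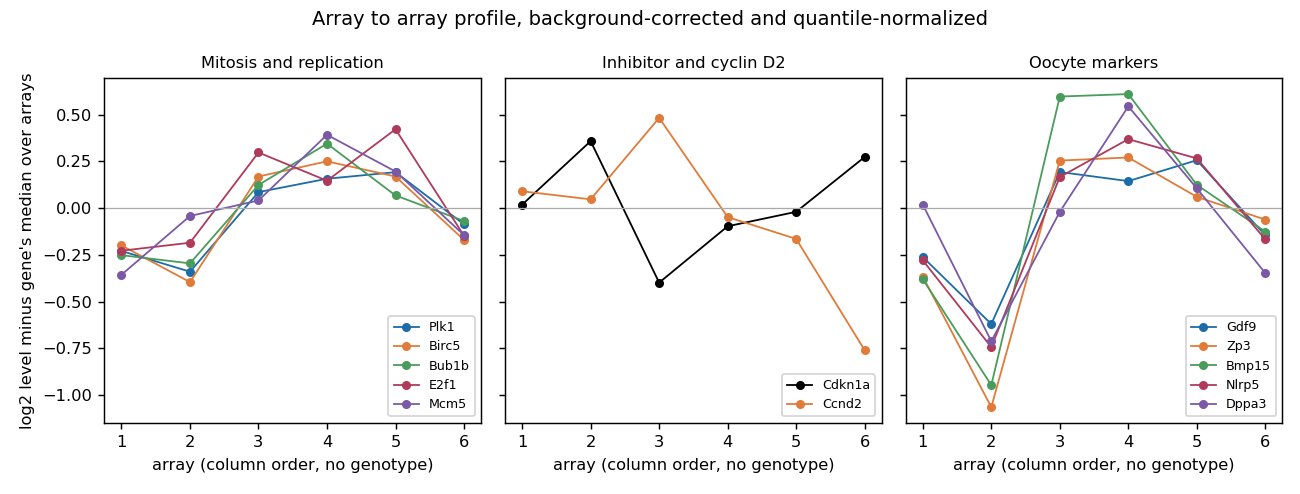
Log2 level minus the gene's own median over the 6 arrays (vertical axis, log2 units) on each array (horizontal axis, column order without genotype; lines only join a gene's points), for 5 proliferation genes, for Cdkn1a with Ccnd2, and for 5 oocyte markers. The proliferation genes and the oocyte markers are low on arrays 1 and 2 and high on arrays 3 to 5 in most cases, Cdkn1a is highest on array 2 and lowest on array 3, and Ccnd2 is lowest on array 6.

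Over the arrays, the oocyte markers shared part of the pattern of the proliferation genes. Of 10 oocyte markers, 8 were above the limit on all arrays, and Zp2, a zona pellucida protein, and Figla, an oocyte transcription factor, were above it on none. All 8 were lowest on array 2, and 5 were highest on array 4. Array 1, the lowest for 9 of the 24 proliferation genes, was lowest for 0 of the 8. The summed intensity of the 10 was 18501, 12803, 22941, 23034, 22736 and 19371 on arrays 1 to 6. Gdf9, a growth factor made by the oocyte, had intensities of 7529, 5954, 9205, 8985, 9544 and 7885, lowest on array 2 and highest on array 5. The log2 level of Gdf9 correlated positively with that of 20 of the 24 proliferation genes, against 47.3% of all rows. The median r was 0.57, with a range of -0.40 (Mcm7) to 0.97 (Plk1). For Plk1 r was 0.97 and Spearman's rho 0.94, with exact permutation p-values of 0.00417 and 0.0167 and adjusted values of 0.20 and 0.40 over the 48 correlations. For Birc5 r was 0.96 and rho 0.81, with adjusted exact p-values of 0.222 and 0.408, and 0 of the 24 correlations with Gdf9 had an adjusted p under 0.05. Without arrays 1 and 2, the farthest from the median of Gdf9, 16 of the 20 were still positive, and those of Aurkb, Foxm1, Mki67 and Top2a were not. Growing oocytes hold mRNA of mitotic kinases and cyclins as maternal stores, and the part of oocyte RNA in the levels of the proliferation genes was not tested.

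Of the granulosa markers, 11 of 12 were above the limit on all arrays, Foxl2 being at background, and their summed intensity ran from 22244 on array 5 to 31205 on array 3. Aromatase, encoded by Cyp19a1, was at 499 to 1585 and Fshr, the receptor of follicle-stimulating hormone, at 216 to 494, both highest on array 3, where Ccnd2 was also highest and Cdkn1a lowest. Lhcgr, the receptor that hCG binds, was at 455 to 776, lowest on array 3 and highest on array 2, as Cdkn1a was. Star was at 131 to 216, its lowest value being near the limit, and Cyp11a1 was at 286 to 506. On the log2 scale 5 of the 11 granulosa markers were highest on array 3 (all rows 20.7%) and 2 were lowest there (all rows 21.4%). The other markers were highest on other arrays, with Hsd17b1 and Nr5a2 highest on array 5. Of the markers of other cells, 4 of 5 of red cells were above the limit on all arrays, against 24.9% of all rows. The same held for 1 of 5 of theca, 1 of 7 of leukocytes measured, 1 of 6 of endothelium and 0 of 6 of stroma. The theca marker Cyp17a1, at 107 to 215, was above the limit on 5 arrays and highest on array 3. Of the genes of the ovulatory response 5 of 11 measured were above it on all arrays, namely Areg, Btc, Adamts1, Ptx3 and Cited4. Another 4, Ptgs2, Has2, Ereg and Runx2, were above it on no array, while Pgr was above it on 1 and Sfrp4 on 5.

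Between genotypes, the 34 symbols could be compared only as labels of rows in the series matrix table. The row labelled Fzd1 had levels of 8.85, 8.80 and 9.10 in KO against 8.69, 8.79 and 8.84 in WT. The Fzd1 row of the non-normalized table lay at 96.4 to 108, the level of background, so neither table checks the genotype. With limma, 0 of the 24 member rows that passed the filter on low values were higher in KO (all 18499 rows tested, 0%) and 0 were lower (all rows 0%) at an adjusted p of 0.05. Among the members this p was at least 0.952 in limma. The other 10 member rows were too low to be tested, among them those labelled Mki67, Ccnb1, E2f1 and Cdkn1b. At an unadjusted p under 0.05 there was 1 member row, against 4.94% of all rows. limma-trend with robust eBayes also called 0 members, with 3 at an unadjusted p under 0.05.

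That row was labelled Tyms, with levels of 7.76, 7.77 and 7.79 in KO against 7.66, 7.71 and 7.65 in WT. All 3 KO values lay above all 3 WT values, as in 1001 rows (5.41%) overall. KO minus WT was 0.10 log2 units (SE 0.025, adjusted p = 0.952 in limma). The exact two-sided permutation p was 0.1, the smallest that 3 against 3 can give. In the opposite direction, the row labelled Plk1 had all KO values below all WT values, as in 4.92% of rows. It differed by -0.047 (SE 0.020, adjusted p = 0.978 in limma), between 7.60 ± 0.020 in KO and 7.65 ± 0.017 in WT (SD, n = 3). The row labelled Cdkn1a had levels of 7.72, 7.77 and 7.84 in KO and 7.73, 7.70 and 7.63 in WT, which overlap, and differed by 0.092 (95% interval -0.013 to 0.20, adjusted p = 0.978 in limma). Over the 24 member rows the differences ran from -0.22 (labelled Mcm7) to 0.18 (labelled Mcm5), both of which had intervals that include 0. The median difference was -0.0031 log2 units, against 0.00062 for all rows, and 11 of 24 were above 0, against 50.8% of all rows. With no filter, 0 of 30832 rows were called in either direction, and the smallest adjusted p of any row was 0.204 in limma. No difference between genotypes is attributed to any of the 34 genes, since no row was called and the labels of that table did not follow the levels.

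**Figure D4:**
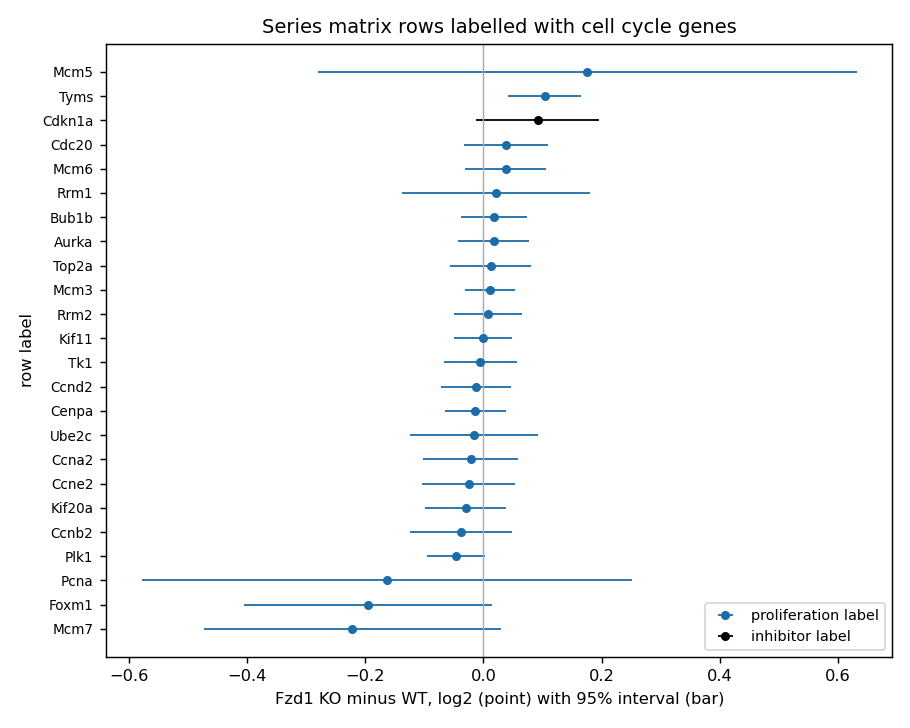
Difference between Fzd1 KO and Fzd1 WT (horizontal axis, log2 units; point, with the 95% interval of the limma fit as a bar, 3 arrays per genotype) for the 24 tested rows labelled with cell cycle genes in the series matrix table (vertical axis). None passed an adjusted p of 0.05, and the labels are not credited to genes in that table.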

How the data were processed

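RNA of 6 granulosa cell samples was measured on 1-colour arrays labelled with biotin, per the labels. The deposited non-normalized table holds an intensity and a detection p-value per row and array, per the file headers. The deposited series matrix values were treated as log2 levels from their range; the authors' scaling and normalization, and the annotation build of the array, were not given in any source used here. The 6 intensity and 6 detection p-value columns, 12 in all, matched no sample label, so those arrays entered no comparison of genotypes. They were used for levels over the arrays alone. The members and the gene lists were chosen with earlier results of these data known.

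Genotypes were compared in the series matrix table with limma 3.58.1 in R 4.3.3 (lmFit, eBayes), over the 60% of rows with the highest mean, with Benjamini-Hochberg adjustment over all of them and a threshold of 0.05. Levels of the non-normalized table were corrected for background with limma's normexp, its parameters estimated from the detection p-values of rows whose p-values are whole 936ths (taken as 936 negative controls), then quantile-normalized and taken to log2 with an offset of 16. The background SD so estimated was 6.39 to 14.8 per array, against 91.3 to 149 from all rows. The 14 rows without a symbol stayed in all counts of rows. Values on every array are given for Mki67, Ccnd2, Cdkn1a, Cdkn1b and the 10 other members with the highest median intensity. From each further cell cycle list the 4 genes with the highest median are named. The labels do not say that a shared replicate number pairs samples, so the main fit had no pairing. Deviations from the group means of KO and WT arrays with the same number had r of -0.19, -0.038 and -0.30. With 3 arrays per genotype, these values cannot settle whether samples were paired. Scanner intensities give no counts, so the number of arrays limits the precision. Motifs were searched in the RefSeq promoter table of GRCm38.p6 with Python 3.11.15.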

Additional observations from a re-analysis of the deposited data

How the results depend on the processing

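Of 97 recomputed values that answer a comparison, 86 kept their direction and call or stayed within 1.5 times, and 11 moved. No member row was called in either direction under any of 11 alternatives in limma, where the smallest adjusted p of a member ran from 0.623 without KO replicate 3 up to 0.999 under the replicate block. With the replicate block 0 rows of 18499 were called in either direction. Member rows whose KO values all lay above WT numbered 1 to 3, and those below 1 to 3, with 1 array left out, where fewer values make separation easier, and 2 lay below with no filter on low rows. The share of ribosomal rows among the brightest 5% of the series matrix table was 7.69%, where fewer rows count as bright. The 17 members detected on every array became 21 at a detection p of 0.05, 25 by the intensity limit, and 17 to 18 with 1 array left out. Of the 24 proliferation genes, 12 to 14 were highest on array 4, 16 to 19 lowest on array 1 or 2, and 18 to 23 ran against Cdkn1a, over the alternatives run. The intensity limit and the background from all rows were chosen after seeing the data. Using every probe of a member was not run, since each has 1 row. Scaling to the median without quantile normalization widened the span of Plk1 from 0.53 to 0.87, and the background from all rows narrowed that of Ccnd2 from 1.24 to 0.82; the causes were not tested.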
